A study of Mus musculus with 36 samples.

Results

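Transcript levels of 9 transcription factors of the myeloid lineage were followed across mouse brain regions, an MSA model, a microglia-depleting diet and sorted microglia. The genes, found by their symbols among the 24940 genes counted, were Spi1, Irf8, Irf5, Runx1, Ikzf1, Cebpa, Sall1, Sall3 and Mef2c. All 9 passed the filter on low counts in every comparison made.

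The bulk tissue came from male mice fed from 4 weeks of age, for 12 weeks, on AIN-76A chow with PLX5622 (1200 mg/kg) or on the same chow as placebo. PLX5622 blocks CSF1R, the growth factor receptor that microglia need to survive. Cortex, corpus callosum and striatum were taken from mice of the MBP29-hα-syn line and from control mice. In that line the myelin basic protein promoter drives human α-synuclein in oligodendrocytes. It models multiple system atrophy (MSA), and its animals are called MSA mice here. Microglia came from forebrain of 16-week-old MSA and control mice, sorted as CD11b+ CD45low cells, with no PLX5622 arm. The sorted controls are titled MBP29_het and the sorted MSA cells carry a homozygous tag, whereas a protocol speaks of wild-type mice.

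PU.1, the product of Spi1, is the lineage-determining factor of macrophages and microglia, and binds many microglial enhancers together with IRF, RUNX and C/EBP factors. Irf8 and Runx1 are needed for normal microglial development, and Sall1 maintains the identity of mature microglia. Mef2c acts in microglia too, but it is best known as a factor of neurons and muscle.

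All cortex groups and both microglia groups held 3 libraries. Groups of corpus callosum and striatum held 2, except for placebo control corpus callosum and placebo MSA striatum with 3. That makes 36 libraries, 30 of them bulk. Counts assigned to genes totalled 4.36 to 28.6 M per bulk library and 5.95 to 12.1 M per microglia library. The PLX5622 libraries of control striatum carry a tag for no treatment against a PLX title. They were kept with PLX5622 by title, and they held 17.6 and 22.0 CPM (counts scaled to 1e6 assigned to genes) as the sum of 20 homeostatic microglia genes, against 706 and 722 CPM in placebo control striatum. The same genes summed to 75620 to 84450 CPM in sorted microglia, where 7 pan-neuronal genes summed to 4.57 to 10.2 CPM, against 1973 to 6478 CPM in bulk tissue. Choroid plexus RNA was uneven. The sum of its 9 genes was 3205 and 8242 CPM in placebo MSA corpus callosum, 3881 CPM in library 3 of placebo MSA striatum, and 1386 and 1498 CPM in PLX5622 control corpus callosum, against at most 573 CPM in the other bulk libraries. In microglia it was 521 to 1614 CPM. Libraries that share an animal cannot be told from the labels, and p-values cover only the scatter among these libraries, which may be technical.

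Promoters of the deposited transcript starts were at hand for 6 of the 9 genes, from RefSeq on GRCm38.p6, each 300 bases long and mostly before the start. The 4 shown belong to genes whose PLX5622 libraries all lay below the placebo libraries in each region of control mice. They are Irf8 (chr8:120736108-120736407, plus strand), Irf5 (chr6:29526375-29526674, plus strand), Runx1 (chr16:92697280-92697579, minus strand) and Ikzf1 (chr11:11685675-11685974, plus strand). Capitals mark the letters of a searched motif, on either strand.
Irf8: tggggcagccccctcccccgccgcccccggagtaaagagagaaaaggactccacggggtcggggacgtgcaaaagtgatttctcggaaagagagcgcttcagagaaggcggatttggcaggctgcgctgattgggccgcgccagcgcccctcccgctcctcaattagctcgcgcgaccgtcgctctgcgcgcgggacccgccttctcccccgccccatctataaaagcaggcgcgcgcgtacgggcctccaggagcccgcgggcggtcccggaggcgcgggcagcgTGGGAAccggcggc
Irf5: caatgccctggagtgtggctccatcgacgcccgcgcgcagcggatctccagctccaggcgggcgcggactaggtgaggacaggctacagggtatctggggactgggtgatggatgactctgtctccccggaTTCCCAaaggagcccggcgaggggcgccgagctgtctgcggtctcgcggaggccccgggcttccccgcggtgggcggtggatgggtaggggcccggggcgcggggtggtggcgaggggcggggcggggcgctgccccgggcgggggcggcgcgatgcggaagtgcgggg
Runx1: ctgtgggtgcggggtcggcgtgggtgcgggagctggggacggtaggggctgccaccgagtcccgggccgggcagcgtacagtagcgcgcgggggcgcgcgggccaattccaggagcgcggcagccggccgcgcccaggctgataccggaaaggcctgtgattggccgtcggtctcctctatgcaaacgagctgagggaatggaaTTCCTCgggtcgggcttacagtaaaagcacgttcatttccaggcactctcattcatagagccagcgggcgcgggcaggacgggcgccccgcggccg
Ikzf1: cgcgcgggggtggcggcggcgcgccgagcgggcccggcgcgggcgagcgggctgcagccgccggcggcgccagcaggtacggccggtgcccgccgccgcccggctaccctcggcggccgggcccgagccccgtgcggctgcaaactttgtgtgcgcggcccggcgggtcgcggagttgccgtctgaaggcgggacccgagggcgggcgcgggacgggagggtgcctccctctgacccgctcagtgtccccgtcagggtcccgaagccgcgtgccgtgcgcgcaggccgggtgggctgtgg
The PU.1 core GAGGAA stood, on the opposite strand, 46 bases before the start of Runx1 and in 27.5% of 16360 promoters of the same length. The core TGGGAA of the Ikaros family stood 37 bases into Irf8 and, on the opposite strand, 119 bases before the start of Irf5. It stood in 24.4% of all promoters. No match to an IRF motif (GAAANNGAA, 8.2% of promoters), a RUNX motif (TGTGGT, 14.8%) or a C/EBP motif (TTGCNNAA, 10.1%) was found in the 6. Both strands were searched, and no motif overlapped another. The 6 promoters had a median GC content of 69.5%, with a range of 57.3 to 81.3%, against 56.3% over all promoters (quartiles 48.0 and 64.3%). The Ikzf1 promoter had the highest of the 6, 81.3%, with 52 CpG sites.

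In sorted control microglia 8 of the 9 genes were higher than in whole control cortex on placebo, and Mef2c was not. A gene is called here where edgeR's quasi-likelihood test gave a Benjamini-Hochberg adjusted p under 0.05 over all genes tested. Of all genes 32.1% were called higher and 38.7% lower in this comparison. The median of the 9 log2 changes was 6.21, against -0.15 over all genes. Another scaling moved that median of all genes to -0.30. The cells were isolated by sorting and the cortex was not, and the effect of isolation and of cell type cannot be told apart.

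Irf8 averaged 679 ± 50.1 CPM in sorted control microglia and 6.38 ± 0.61 CPM in control cortex (SD, n = 3 each), a log2 change of 6.88 ± 0.25 (SE, edgeR adjusted p = 5.53e-06). Spi1 averaged 426 ± 19.8 CPM in microglia and 5.23 ± 1.31 CPM in cortex, a log2 change of 6.48 ± 0.31. Ikzf1, which encodes the zinc-finger factor Ikaros, followed with 6.47 ± 0.26. Log2 changes near these were found for Irf5, a factor of inflammatory macrophage activation (6.43 ± 0.35), and for Runx1 (6.21 ± 0.30). Sall1 averaged 1590 ± 25.7 CPM in microglia and 36.1 ± 8.17 CPM in cortex, a log2 change of 5.59 ± 0.31. Cebpa and Sall3 had the smallest changes of the 8 that were called, 4.49 ± 0.49 and 4.13 ± 0.39. Adjusted p over the 8 was at most 0.000169 (edgeR). Mef2c averaged 493 ± 23.4 CPM in microglia and 508 ± 89.9 CPM in cortex, with a log2 difference of 0.08 and a 95% interval of -0.41 to 0.58. The cortex libraries held a pan-neuronal sum of 4764 to 5910 CPM, the microglia 7.10 to 10.2 CPM.

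Per length, in the TPM that the authors deposited, Sall1 led in sorted control microglia with 433 ± 9.26 TPM (SD, n = 3), followed by Spi1 with 421 ± 17.8 TPM, and the libraries of these 2 genes overlapped. Cebpa (347 ± 26.4 TPM), Irf8 (343 ± 23.4 TPM) and Irf5 (300.1 ± 19.0 TPM) came next, without overlap between Spi1 and Cebpa but with overlap from Cebpa to Irf8 and from Irf8 to Irf5. Below a gap came Ikzf1 (123 ± 6.48 TPM) and Mef2c (111 ± 5.89 TPM), which overlapped. Sall3 (54.9 ± 2.74 TPM) and Runx1 (42.7 ± 2.23 TPM) did not overlap. In whole control cortex on placebo the order differed, with Mef2c first at 108 ± 31.4 TPM and Cebpa next at 16.0 ± 9.80 TPM. Runx1 was last there too, at 0.591 ± 0.202 TPM.

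The genotypes of sorted microglia were compared next. No call was made among the 9 genes by edgeR, none had an unadjusted p under 0.05, and DESeq2 called 0. Of all genes 0.61% were called. Spi1 measured 392, 398 and 414 CPM in MSA microglia, against 448, 408 and 424 CPM in control microglia. Its log2 difference of -0.13 ± 0.06 was the largest of the 9 in size (edgeR adjusted p = 0.475). The genotypes overlapped for each of the 9 genes. Irf8 measured 664, 722 and 755 CPM in MSA microglia, against 729, 678 and 629 CPM in control microglia, with a log2 difference of 0.03 and an interval of -0.11 to 0.17. Sall1 measured 1515, 1556 and 1617 CPM in MSA microglia, against 1571, 1580 and 1619 CPM in control microglia. Mef2c averaged 481 ± 19.99 CPM in MSA microglia and 493 ± 23.4 CPM in control microglia (SD, n = 3 each).

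**Figure D1:**
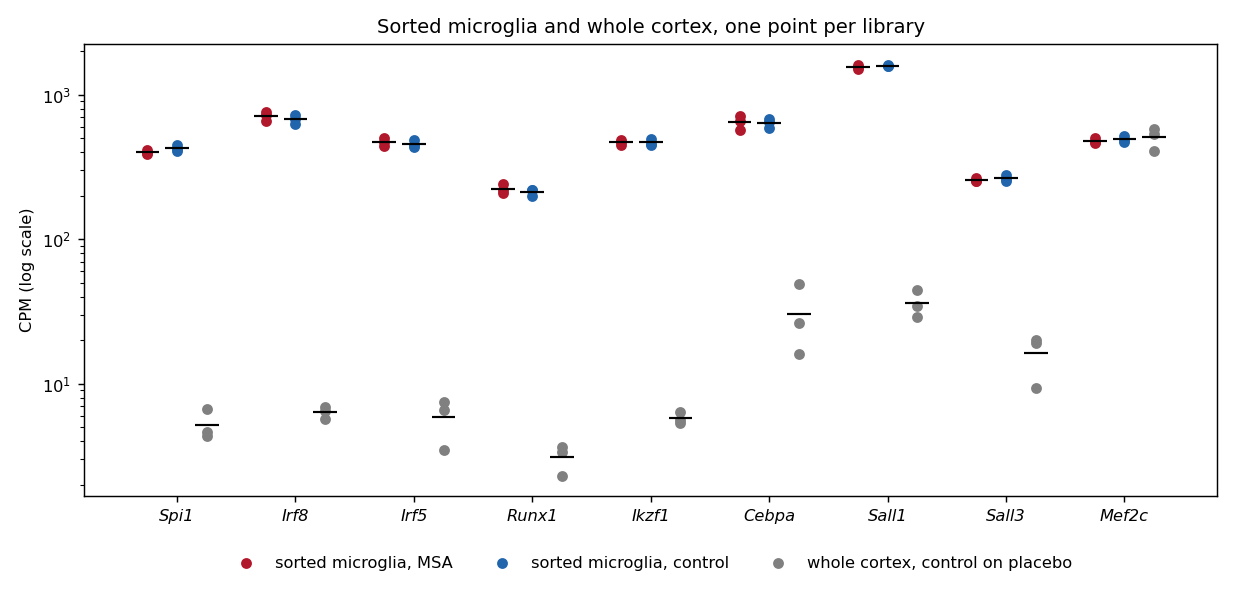
CPM on a log axis of the 9 genes in sorted MSA microglia, sorted control microglia and whole control cortex on placebo, with a point for each library and a bar for each mean. The microglia groups overlap for each gene, and in 8 genes, all except Mef2c, both lie above every cortex library.

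The PLX5622 diet lowered Spi1, Irf8 and Ikzf1 in control cortex, Irf8 in control corpus callosum and Spi1 in control striatum. These were 3, 1 and 1 of the 9 genes, where 0.486, 0.378 and 0.329% of all genes were called lower. In control mice Spi1, Irf8, Irf5, Runx1 and Ikzf1 had every PLX5622 library below every placebo library in all 3 regions, as did 1.22% of the 14195 genes tested in all regions. By region the genes without overlap were 6 of 9 in cortex, 5 in corpus callosum and 7 in striatum, where 3.79, 7.15 and 15.6% of all genes lay so. The median log2 change of the 9 genes was -2.19, -1.56 and -1.16 in these regions, against 0.02, 0.02 and 0.00 over all genes. In bulk tissue fewer cells of a type and less RNA per cell cannot be told apart.

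In MSA mice the diet led to no call among the 9 genes by edgeR in any region. An unadjusted p under 0.05 was reached by 5 genes in cortex, 4 in corpus callosum and 4 in striatum, and DESeq2 called 0, 2 and 2 of the 9. Of all genes 4.42, 8.48 and 13.8% had such a p, and DESeq2 called 0.233, 0.756 and 1.66%. By edgeR 0.0548, 0.063 and 0.074% of all genes were called lower in these regions. Spi1 and Sall1 had no overlap in all 3 regions, as did 1.41% of all genes. By region 5, 6 and 4 of the 9 lay wholly below placebo, where 6.67, 19 and 14.4% of all genes did. The median log2 change of the 9 was -1.08, -1.24 and -0.49, against -0.03, 0.00 and 0.00 over all genes.

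The microglial marker genes moved with these values. The 20 homeostatic microglia genes summed to 17.6 to 31.9 CPM in PLX5622 control cortex, against 709 to 962 CPM on placebo, with P2ry13, Csf1r, Fcrls, C1qb, C1qc and Fcer1g at 0 in all 3 PLX5622 libraries. The sum was 22.2 and 45.5 CPM in PLX5622 control corpus callosum, against 799 to 884 CPM on placebo. In MSA mice it was 187 to 387 CPM on PLX5622 over the 3 regions, against 709 to 1391 CPM on placebo. As a share of the placebo mean, 2.12 to 5.48% remained in control libraries and 19.2 to 32.6% in MSA libraries. The 7 genes of border-associated macrophages summed to 1.89 to 23.0 CPM in PLX5622 control libraries of all regions, against 20.4 to 34.9 CPM on placebo. Stab1 made up 55.4 to 80.1% of this sum in placebo control cortex and corpus callosum. In placebo control striatum Cd163 led in library 1 and Stab1 in library 2. Stab1 was also abundant in sorted control microglia, at 813 to 844 CPM or 91.9 to 93.1% of the sum. The part of border-associated macrophages in the results was not tested.

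**Figure D2:**
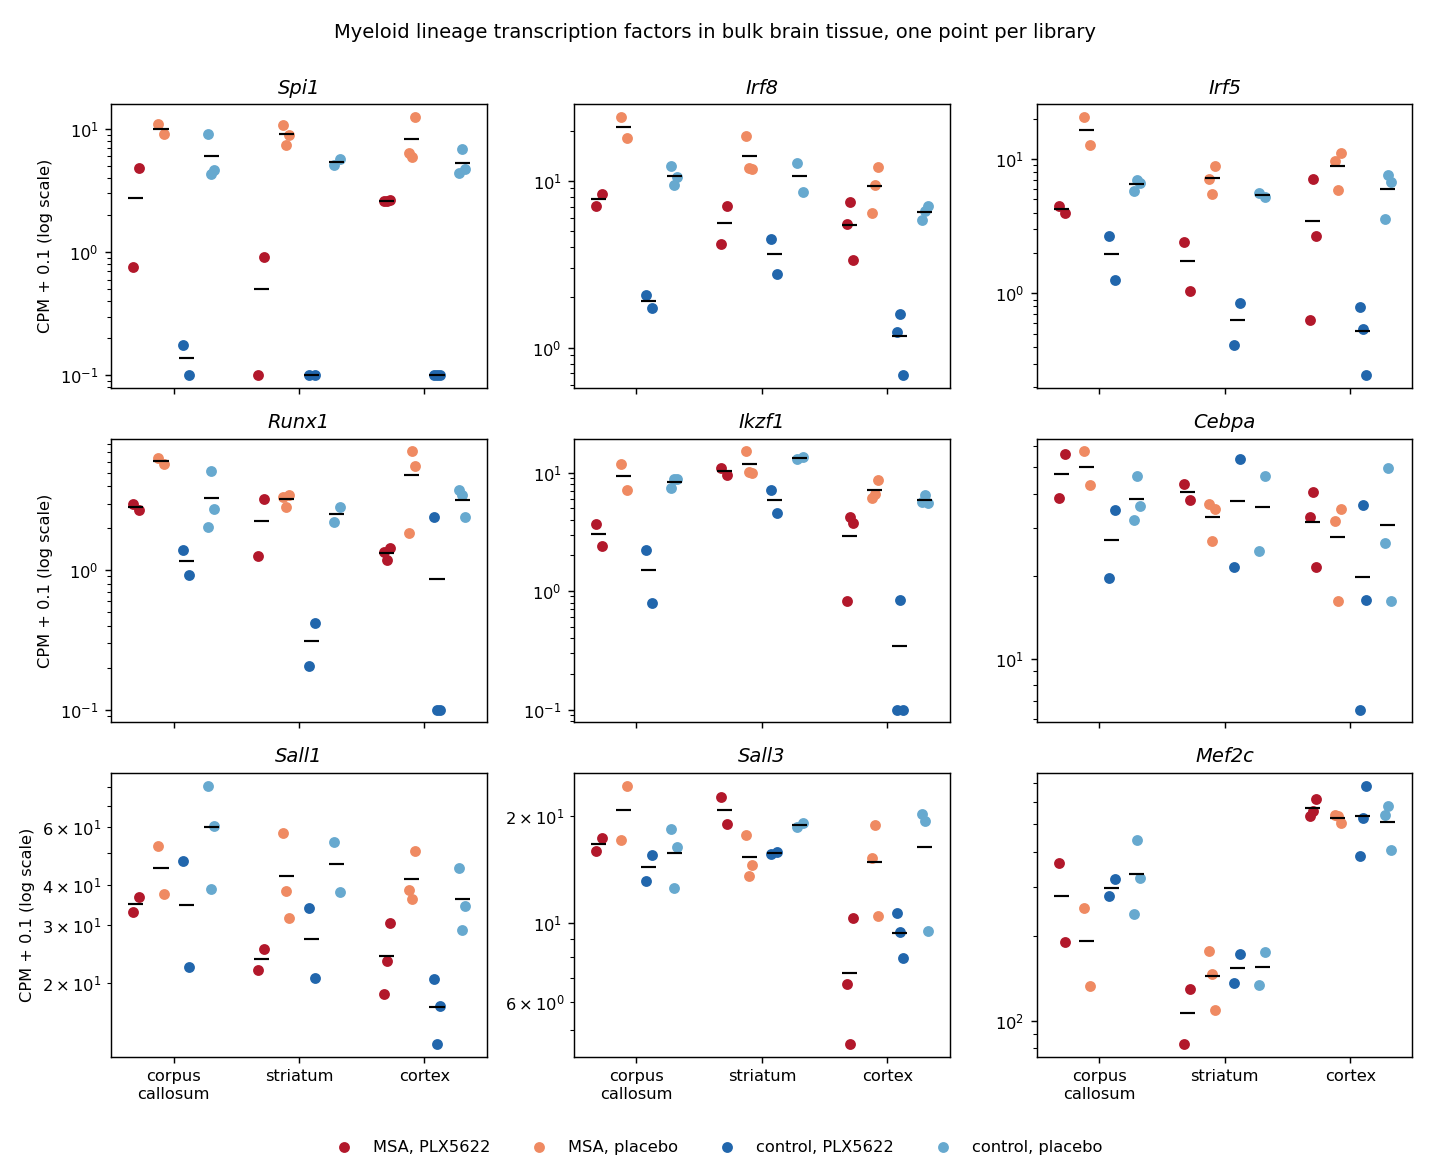
CPM plus 0.1 on a log axis for each of the 9 genes in the 30 bulk libraries, by region, with a point per library and a bar at each group mean. Spi1 lies at the floor of the axis in all PLX5622 control libraries of cortex and striatum, whereas Mef2c, the most abundant of the 9 in CPM, shows no gap between diets in any region.

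Spi1 (chromosome 2, 91096678 to 91115759, plus strand, mm10) lost all counts on PLX5622 in control cortex. It had 0, 0 and 0 CPM there, against 4.33, 6.73 and 4.62 CPM on placebo. The PLX5622 libraries held 0 Spi1 reads and the placebo libraries 113. With a floor of 3 counts over the group, Spi1 was at least 31.4-fold lower (edgeR adjusted p = 0.000827). Such floors and the intervals on ratios cover counting error only. Leaving out any 1 of the 12 cortex libraries kept this call, and fitting the 2 groups alone did not (adjusted p = 0.0567).

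Control striatum had 0 and 0 CPM of Spi1 on PLX5622, against 5.00 and 5.59 CPM on placebo. That is 0 reads against 101, at least 33.5-fold lower (edgeR adjusted p = 0.0107). Without one or the other PLX5622 library the adjusted p was 0.109 or 0.0997 (edgeR). Control corpus callosum had 0.076 and 0 CPM on PLX5622, against 9.08, 4.24 and 4.55 CPM on placebo. A single read against 214 gave a ratio of 121 in favour of placebo, with a 95% counting interval of 21.6 to 4816 (edgeR adjusted p = 0.0508). Each control region thus had at most 1 Spi1 read over its PLX5622 libraries.

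MSA mice kept Spi1 reads in 6 of 7 PLX5622 libraries. MSA cortex had 2.51, 2.50 and 2.55 CPM on PLX5622, against 6.29, 5.79 and 12.3 CPM on placebo, a log2 change of -1.73 ± 0.44 (edgeR adjusted p = 0.672). The PLX5622 libraries were close to each other and below all placebo libraries. MSA corpus callosum had 0.657 and 4.68 CPM on PLX5622, against 10.9 and 8.92 CPM on placebo, a change of -2.03 ± 0.80. MSA striatum had 0 and 0.814 CPM on PLX5622, against 10.7, 7.36 and 8.91 CPM on placebo, a change of -4.23 ± 0.74 (edgeR adjusted p = 0.0683). Neither region had overlap between diets, and DESeq2 called the change in striatum.

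Irf8 (chromosome 8, 120736358 to 120756692, plus strand), a partner of PU.1, fell by less than Spi1 in control mice and left counts in every library. Control cortex had 1.15, 1.48 and 0.581 CPM on PLX5622, against 5.72, 6.47 and 6.93 CPM on placebo, a log2 change of -2.55 ± 0.46 (edgeR adjusted p = 0.0238). That call was lost in 5 of 12 fits that left out 1 library, namely placebo 2 (adjusted p = 0.0788) or 3 (0.0651), or PLX5622 1 (0.0789), 2 (0.0619) or 3 (0.147), by edgeR. The change without these libraries was -2.89 to -2.25.

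Control corpus callosum had 1.98 and 1.63 CPM of Irf8 on PLX5622, against 12.2, 9.30 and 10.4 CPM on placebo. The log2 change was -2.55 ± 0.35 (edgeR adjusted p = 0.011), and -2.43 without placebo library 1 (0.0547). Control striatum had 4.38 and 2.66 CPM on PLX5622, against 12.6 and 8.52 CPM on placebo, a change of -1.55 ± 0.42 (0.418). In MSA mice the libraries overlapped in cortex, with 5.39, 7.33 and 3.27 CPM on PLX5622, against 6.29, 9.37 and 11.9 CPM on placebo (log2 change -0.86 ± 0.40). They did not overlap in MSA corpus callosum, with 7.01 and 8.27 CPM on PLX5622, against 23.9 and 18.1 CPM on placebo (-1.58 ± 0.34, edgeR adjusted p = 0.194). DESeq2 called this change in MSA corpus callosum (adjusted p = 0.00843). MSA striatum had 4.06 and 6.92 CPM on PLX5622, against 18.4, 11.8 and 11.6 CPM on placebo (-1.30 ± 0.39), again without overlap.

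Irf5 (chromosome 6, 29526625 to 29537320, plus strand) lay lower on PLX5622 in every control library but passed the reported edgeR test in no region, a call that turned on the settings. DESeq2 called it in all 3 control regions and in MSA corpus callosum (adjusted p = 0.00255) and MSA striatum (0.0306). With no low-count filter edgeR called it in control cortex (adjusted p = 0.023) and control striatum (0.00656). Control cortex had 0.688, 0.444 and 0.145 CPM on PLX5622, against 3.49, 7.51 and 6.62 CPM on placebo, a log2 change of -3.79 ± 0.82 (edgeR adjusted p = 0.0773). Control striatum had 0.313 and 0.744 CPM on PLX5622, against 5.53 and 5.15 CPM on placebo (-3.27 ± 0.61, adjusted p = 0.0508). In control corpus callosum Irf5 had 2.58 and 1.17 CPM on PLX5622, against 5.73, 6.84 and 6.53 CPM on placebo (-1.72 ± 0.44). MSA cortex libraries were spread widely, with 0.539, 6.97 and 2.55 CPM on PLX5622, against 9.5, 5.79 and 10.99 CPM on placebo (-1.44 ± 0.65). In MSA corpus callosum Irf5 averaged 4.13 ± 0.349 CPM on PLX5622 (n = 2) and 16.5 ± 5.45 CPM on placebo (SD, n = 2). That change was -2.12 ± 0.45 (edgeR adjusted p = 0.191), and that in MSA striatum -2.13 ± 0.54 (0.178).

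Runx1 (chromosome 16, 92601466 to 92697329, minus strand) had the lowest mean TPM of the 9 in each region of placebo control mice. Control cortex had 2.29, 0 and 0 CPM on PLX5622, against 3.63, 3.37 and 2.31 CPM on placebo, so that PLX5622 library 1 lay just under the lowest placebo library (-2.19 ± 1.06). Control striatum had 0.104 and 0.319 CPM on PLX5622, against 2.11 and 2.75 CPM on placebo (-3.41 ± 0.81, edgeR adjusted p = 0.217). For control corpus callosum the values were 1.29 and 0.817 CPM on PLX5622, against 1.94, 5.06 and 2.62 CPM on placebo (-1.56 ± 0.58). No overlap was seen in any control region, and none of these changes was called. Without PLX5622 library 1, which held all Runx1 reads of its group, the cortex change was called (edgeR adjusted p = 0.0348). It was also called without libraries of low assignment (edgeR adjusted p = 0.0366), a fit that drops the same library. Both calls thus rest on a PLX5622 group with 0 Runx1 reads. MSA striatum overlapped, with 1.16 and 3.12 CPM on PLX5622, against 3.25, 2.72 and 3.38 CPM on placebo (-0.49 ± 0.61). An antisense gene, Gm26626, shares 106 exon bases with Runx1, and no source used here gives the strand setting of the counting.

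Ikzf1 (chromosome 11, 11685925 to 11772926, plus strand) fell in control cortex and kept far more of its level in striatum. Control cortex had 0, 0.741 and 0 CPM on PLX5622, against 5.58, 6.35 and 5.39 CPM on placebo, a log2 change of -4.32 ± 0.87 (edgeR adjusted p = 0.0466). This call was kept in 2 of the 12 fits that left out 1 cortex library, with a log2 change of -8.28 to -3.71 and an adjusted p of 0.0252 to 0.19 (edgeR). The first of these changes came without PLX5622 library 2, the one library of its group with Ikzf1 reads, and so rests on a group at 0. It was lost without any of the placebo control libraries (0.0722, 0.13 and 0.0561), PLX5622 control library 1 or 3 (0.165 and 0.19), any placebo MSA library (0.0815 to 0.0882) or PLX5622 MSA library 2 or 3 (0.0605 and 0.0657).

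In control striatum Ikzf1 had 7.09 and 4.47 CPM on PLX5622, against 13.04 and 13.31 CPM on placebo (-1.16 ± 0.35, edgeR adjusted p = 0.646). That is 53.8 and 33.9% of the placebo mean, where 3.08 and 2.46% of the homeostatic microglia sum remained. In the same libraries Irf8 kept 41.4 and 25.1% of its placebo mean. The border-associated macrophage sum kept 78.4 and 37.0% there, but Mrc1, F13a1, Pf4 and Cbr2 of its 7 genes were at 0 in both PLX5622 libraries, and Cd163 alone made up 90 and 77.5% of it. Of 11 lymphocyte genes 7 to 9 were at 0 in each control striatum library. Without Cd4, which made up at least 97% of their sum, they held 2.19 and 2.66 CPM on PLX5622, against 1.45 and 3.73 CPM on placebo. Genes of striatal projection neurons summed to 12180 to 12380 CPM in control striatum on PLX5622 and 10310 to 12180 CPM on placebo. In placebo control cortex they summed to 426.5 to 532.6 CPM. The part of Cd163-expressing cells or of striatal neurons in the Ikzf1 level was not tested. MSA striatum had 10.8 and 9.5 CPM of Ikzf1 on PLX5622, against 15.0, 10.1 and 9.86 CPM on placebo, so the diets overlapped (-0.17 ± 0.32, 95% interval -0.80 to 0.45).

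Control corpus callosum had 2.13 and 0.70 CPM of Ikzf1 on PLX5622, against 7.35, 8.75 and 8.78 CPM on placebo (-2.49 ± 0.53, edgeR adjusted p = 0.128). Without PLX5622 library 1 this change was -3.62, but that fit left a single PLX5622 library, with 6 Ikzf1 reads. The diet change of Ikzf1 was compared between regions over both genotypes. In striatum it was 2.13 ± 0.59 higher on the log2 scale than in cortex (edgeR adjusted p = 1). Of all genes 0% were called in that comparison, and 0% in the one of corpus callosum with cortex. The striatum comparison called 0 of the 9 genes by edgeR and by DESeq2, with Ikzf1 and Sall3 at an unadjusted p under 0.05. The comparison of corpus callosum called 0 by either tool, with 0 at an unadjusted p under 0.05.

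**Figure D3:**
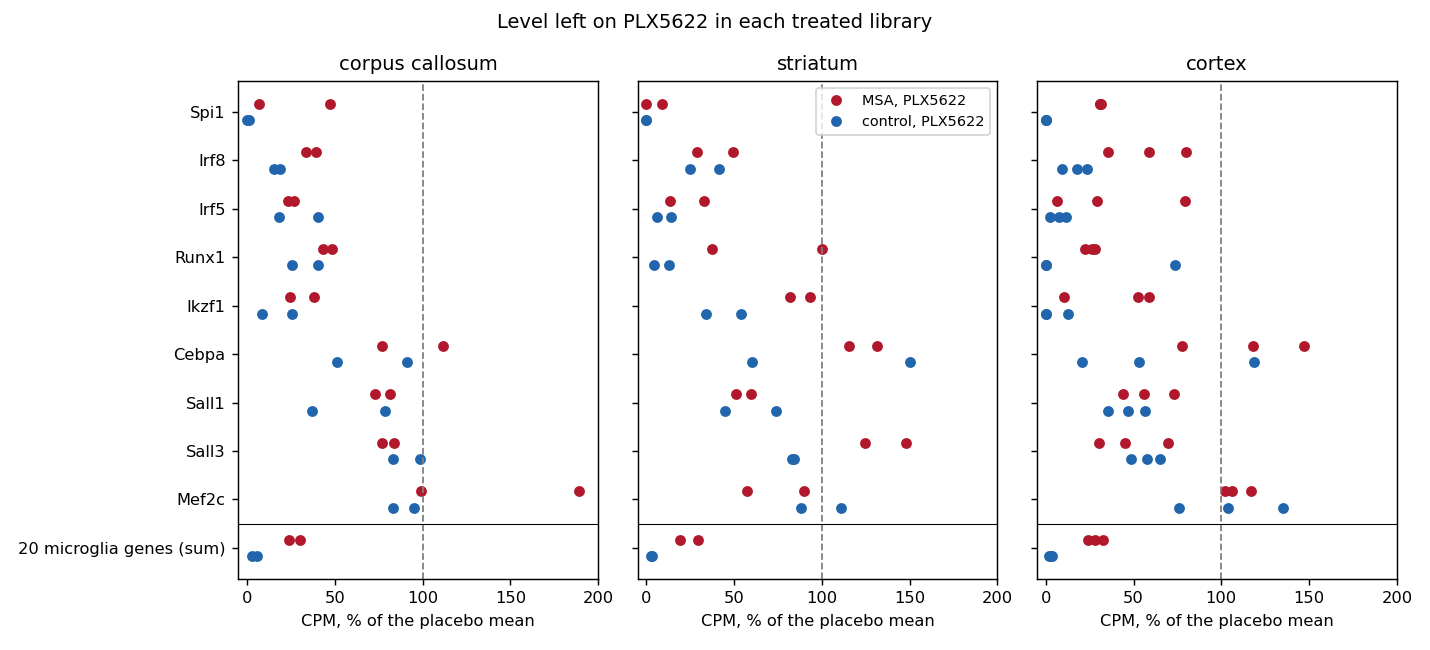
Level in each PLX5622 library as a percent of the mean of the placebo libraries of the same genotype and region, for the 9 genes and for the sum of the 20 homeostatic microglia genes, with MSA above control and a dashed line at 100%. The microglia sum lies at 2.12 to 5.48% in control and 19.2 to 32.6% in MSA libraries. Irf8, Cebpa, Sall1 and Mef2c lie to the right of the sum in each library. So do Ikzf1 in striatum and Runx1 in striatum and corpus callosum. Sall3 does too, except in library 2 of MSA cortex (30.4%, against 32.6% for the sum).

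Cebpa (chromosome 7, 35119293 to 35121928, plus strand), a C/EBP factor of granulocytes and macrophages and also of fat and liver, was called in no diet comparison by edgeR. Control cortex had 6.42, 36.4 and 16.3 CPM on PLX5622, against 26.4, 49.5 and 16.2 CPM on placebo (-0.63 ± 0.53, 95% interval -1.67 to 0.41). These libraries were widely spread and overlapped. In control striatum the libraries overlapped too, with 21.5 and 53.4 CPM on PLX5622, against 24.6 and 46.5 CPM on placebo (0.10 ± 0.40). In corpus callosum control mice had 19.5 and 34.7 CPM on PLX5622, against 31.9, 46.3 and 35.9 CPM on placebo (-0.52 ± 0.30). In MSA mice the log2 change was 0.13 ± 0.53 in cortex, -0.20 ± 0.33 in corpus callosum and 0.33 ± 0.37 in striatum, where both PLX5622 libraries lay above placebo. The antisense gene Gm45091 shares 51 exon bases with Cebpa.

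Sall1 (chromosome 8, 89027243 to 89044162, minus strand), a zinc-finger repressor, lay lower on PLX5622 by about 1 log2 unit or less and was called in no region by edgeR. Control cortex had 20.4, 12.9 and 16.9 CPM on PLX5622, against 45.0, 28.9 and 34.4 CPM on placebo, without overlap (-1.09 ± 0.29, edgeR adjusted p = 0.254). MSA cortex had 18.3, 23.2 and 30.4 CPM on PLX5622, against 38.5, 35.9 and 50.5 CPM on placebo, without overlap (-0.83 ± 0.28). These PLX5622 libraries kept 35.7 to 73.1% of the placebo mean. Control corpus callosum had 47.1 and 22.2 CPM on PLX5622, against 80.5, 38.7 and 60.4 CPM on placebo, and these overlapped (-0.78 ± 0.38).

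MSA corpus callosum had 32.8 and 36.7 CPM of Sall1 on PLX5622, against 52.6 and 37.4 CPM on placebo (-0.50 ± 0.41). In striatum the change was -0.73 ± 0.32 in control mice and -0.82 ± 0.30 in MSA mice, with no overlap in either. MSA mice had 21.8 and 25.4 CPM in striatum on PLX5622, against 57.7, 38.2 and 31.6 CPM on placebo. Sall1 was thus, with Spi1, 1 of the 2 genes of the 9 that had no overlap between diets in each MSA region.

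Sall3 (chromosome 18, 80966374 to 80986578, minus strand), a relative of Sall1, had a negative log2 diet change everywhere except in MSA striatum. None of these changes was called by edgeR. In control cortex it had 10.5, 9.33 and 7.85 CPM on PLX5622, against 20.1, 19.2 and 9.40 CPM on placebo (-0.80 ± 0.39), with overlap. MSA cortex had 6.65, 4.47 and 10.2 CPM on PLX5622, against 15.1, 18.7 and 10.3 CPM on placebo, with a narrow gap (-1.08 ± 0.39, edgeR adjusted p = 0.921). In MSA striatum the order was turned, with 22.4 and 18.9 CPM on PLX5622, against 17.6, 13.4 and 14.5 CPM on placebo (0.47 ± 0.23, edgeR adjusted p = 0.392).

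Control striatum had 15.4 and 15.7 CPM of Sall3 on PLX5622, against 18.4 and 18.9 CPM on placebo (-0.23 ± 0.25). The log2 diet change of Sall3, over both genotypes, was 1.02 ± 0.33 higher in striatum than in cortex (edgeR adjusted p = 1). In corpus callosum the diets overlapped in both genotypes, with changes of -0.42 ± 0.30 in MSA mice and -0.16 ± 0.28 in control mice.

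Mef2c (chromosome 13, 83524743 to 83667079, plus strand) was measured at like levels on both diets. Control cortex had 387, 528 and 686 CPM on PLX5622, against 538, 579 and 407 CPM on placebo, with overlap (0.09 ± 0.25, 95% interval -0.40 to 0.58). MSA cortex had 537, 557 and 617 CPM on PLX5622, against 539, 536 and 504 CPM on placebo (0.06 ± 0.25, interval -0.43 to 0.55). Over the other regions the log2 change was -0.18 and 0.02 in control corpus callosum and striatum, and 0.39 and -0.42 in the same MSA regions. None was called by edgeR, and each had an unadjusted p above 0.1. These intervals do not show that the diets were equal.

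The genotypes on placebo differed by no call among the 9 genes by edgeR in any region, where 0% of all genes were called in cortex, 0.321% in corpus callosum and 0.0336% in striatum. An unadjusted p under 0.05 was reached by 0, 2 and 0 of the 9 and by 3.52, 8.53 and 3.75% of all genes, and DESeq2 called 0 of the 9 in each region. Those 2 were Irf8 and Irf5 in corpus callosum. Irf8 averaged 21.0 ± 4.12 CPM in MSA (n = 2) and 10.6 ± 1.47 CPM in control corpus callosum (SD, n = 3), a log2 difference of 1.01 ± 0.30 (edgeR adjusted p = 0.327). Irf5 averaged 16.5 ± 5.45 CPM in MSA and 6.36 ± 0.573 CPM in control corpus callosum, a difference of 1.40 ± 0.39 (adjusted p = 0.276). Runx1 had a narrow gap, with 6.29 and 5.66 CPM in MSA, against 1.94, 5.06 and 2.62 CPM in control corpus callosum. The nearest libraries, at 5.66 and 5.06 CPM, held 26 and 37 reads. The share of all genes without overlap in this comparison was not counted.

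Beside these, the homeostatic microglia sum was 1162 and 1391 CPM in MSA and 799 to 884 CPM in control corpus callosum. The choroid plexus sum was 3205 and 8242 CPM in MSA and 251.3 to 346.3 CPM in control corpus callosum. Their part in the differences was not tested. In cortex the 9 log2 differences between genotypes on placebo were -0.15 to 0.64, and in striatum -0.29 to 0.77, with Spi1 highest in both.

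On PLX5622 the genotypes differed in Spi1 in cortex, the only call among the 9 genes by edgeR in the 3 regions. Of all genes 0.151% were called in cortex, 0.195% in corpus callosum and 0.222% in striatum. Spi1 had 53 reads over the PLX5622 libraries of MSA cortex, in all 3 libraries, and 0 in those of control cortex. It was at least 15.1-fold higher in MSA cortex (edgeR adjusted p = 0.00971), and the call was kept without each of the 12 cortex libraries (0.00935 to 0.0459). It was lost with these 2 groups fitted alone (0.372). The homeostatic microglia sum was 233 to 315 CPM in PLX5622 MSA cortex and 17.6 to 31.9 CPM in PLX5622 control cortex.

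In corpus callosum 3 of the 9 genes, and 4.46% of all, had an unadjusted p under 0.05 between genotypes on PLX5622. DESeq2 called 2 of the 9, Irf8 (adjusted p = 0.00236) and Spi1 (0.0447). Irf8 had 7.01 and 8.27 CPM in MSA, against 1.98 and 1.63 CPM in control corpus callosum (1.97 ± 0.37, edgeR adjusted p = 0.0889). Spi1 had 59 reads in MSA and 1 in control corpus callosum, a ratio of 45.3 with a 95% counting interval of 7.82 to 1819 (edgeR adjusted p = 0.253). Library 1 of MSA gave 0.657 CPM and the other 4.68 CPM, so these reads lay mostly in 1 library.

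In striatum 4 of the 9 genes, and 11% of all, had an unadjusted p under 0.05 between genotypes on PLX5622, and DESeq2 called 0 of the 9. Runx1 had 1.16 and 3.12 CPM in MSA, against 0.104 and 0.319 CPM in control striatum (3.28 ± 0.83, edgeR adjusted p = 0.307). Ikzf1 had 10.8 and 9.5 CPM in MSA, against 7.09 and 4.47 CPM in control striatum (0.81 ± 0.35). Spi1 had 6 reads in MSA, all in 1 library, and 0 in control striatum, at least 2.58-fold higher (edgeR adjusted p = 0.44).

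Whether the diet change itself differed between genotypes was tested as an interaction, with positive values where MSA mice lost less. It called none of the 9 genes by edgeR in any region, while 0.0959% of all genes were called in cortex, 0.264% in corpus callosum and 0.0874% in striatum. An unadjusted p under 0.05 was reached by 4, 1 and 2 of the 9 and by 3.77, 4.7 and 5% of all genes, and DESeq2 called 1, 0 and 0 of the 9. For Spi1 in cortex the adjusted p was 0.0947 (edgeR), and its size rests on a group with no reads. For Irf8 in cortex the interaction was 1.69 ± 0.60 (adjusted p = 0.912, edgeR), and for Ikzf1 in cortex 2.99 ± 1.09 (0.912). For Runx1 in striatum it was 2.92 ± 1.01 (edgeR adjusted p = 0.802). The interaction values for Cebpa, Sall1 and Mef2c were between -0.44 and 0.76 in the 3 regions.

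Between regions of placebo control mice, Mef2c was the only gene of the 9 called by edgeR. It had 134 and 176 CPM in striatum, against 538, 579 and 407 CPM in cortex, a log2 difference of -1.74 ± 0.34 (edgeR adjusted p = 0.0009). Of all genes 12.9% were called between striatum and cortex. The 7 genes of cortical glutamatergic neurons summed to 77.4 and 99.1 CPM in striatum and 1170 to 2601 CPM in cortex, and their part was not tested. Ikzf1 had 13.04 and 13.31 CPM in striatum, against 5.58, 6.35 and 5.39 CPM in cortex (1.16 ± 0.52, edgeR adjusted p = 0.157). The 11 lymphocyte genes summed to 93.2 and 126.3 CPM in placebo control striatum and 2.93 to 8.47 CPM in cortex. Cd4 alone gave 91.8 and 122.6 CPM of the striatum sums. The lymphocyte genes other than Cd4 summed to 1.45 and 3.73 CPM in placebo control striatum and 2.09 to 4.16 CPM in cortex. Genes of striatal projection neurons summed to 10310 and 12180 CPM in striatum and 426.5 to 532.6 CPM in cortex. The part of these cells in the Ikzf1 difference was not tested.

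Corpus callosum against cortex gave no call among the 9 genes by edgeR and DESeq2, with 1 unadjusted p under 0.05, and 2.94% of all genes called. That gene was Mef2c, with 240, 438 and 323 CPM in corpus callosum, against 538, 579 and 407 CPM in cortex (-0.72 ± 0.28, edgeR adjusted p = 0.212).

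**Figure D4:**
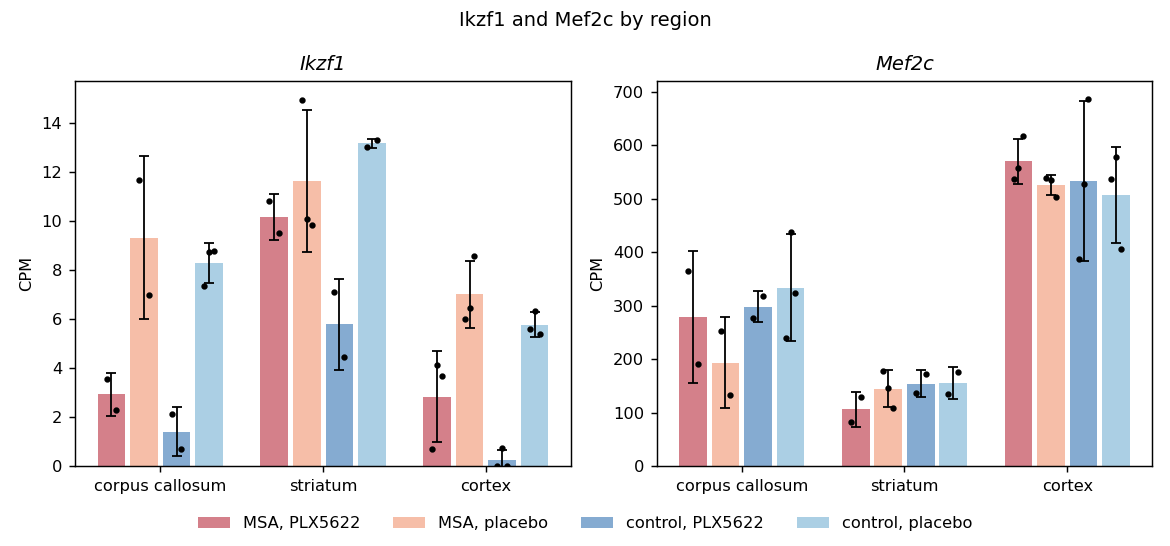
Mean CPM of Ikzf1 and Mef2c in the bulk groups by region, with bars from 0, error bars of 1 SD and a point for each library (n = 2 or 3). Ikzf1 is highest in striatum, where PLX5622 leaves 10.2 CPM in MSA and 5.78 CPM in control mice, and Mef2c is highest in cortex on either diet.

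Over all 14 groups, 8 genes had both sorted microglia groups at the top, with no overlap with any bulk group. Of all 15021 genes with a mean of at least 1 CPM, 21.4% had every microglia library above every bulk library. Below them, Spi1, Irf8, Irf5 and Runx1 were highest in placebo MSA corpus callosum, where their means were 9.89, 21.0, 16.5 and 5.97 CPM. Of these, Irf5 alone did not overlap with the next group, placebo MSA cortex at 8.76 CPM. Ikzf1 was highest of bulk groups in placebo control striatum (13.2 CPM) and lowest in PLX5622 control cortex (0.247 CPM). PLX5622 control cortex was also lowest for Spi1 (with striatum), Irf8, Irf5, Cebpa and Sall1. Cebpa did not separate any neighbouring bulk groups, which spanned 19.7 to 50.04 CPM.

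Sall3 was highest of bulk groups in PLX5622 MSA striatum (20.6 CPM) and lowest in PLX5622 MSA cortex (7.11 CPM). Mef2c ran from 570 CPM in PLX5622 MSA cortex to the striatal groups, the lowest being PLX5622 MSA striatum with 106 CPM, and the 4 cortex groups and both microglia groups overlapped with their neighbours in the order. MSA microglia did not overlap with the next group, placebo control corpus callosum at 334 CPM.

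Other genes of the same network were read from lists. Of 12 known PU.1 target genes, 5 of 9 tested were lower on PLX5622 in control cortex. In control corpus callosum 5 of 11 tested were lower, and in control striatum 3 of 10. Their median log2 changes were -4.00, -1.90 and -4.23, against 0.02, 0.02 and 0.00 over all genes. Of all genes 0.486, 0.378 and 0.329% were called lower in these control regions. Itgam, the CD11b integrin, averaged 0.625 ± 0.501 CPM on PLX5622 and 19.6 ± 3.35 CPM on placebo in control cortex (SD, n = 3 each), a change of -5.03 ± 0.45. Csf3r, a receptor of granulocyte growth factor, changed by -5.39 ± 0.61 and Ncf1, a subunit of the phagocyte oxidase, by -4.00 ± 0.78. In MSA mice 2 of 9, 1 of 11 and 1 of 10 were lower, with medians of -1.44, -1.36 and -2.12. The shares of all genes called lower in MSA mice were 0.0548, 0.063 and 0.074%. Csf1r and Itgam are also on the microglia list.

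Between sorted MSA and control microglia, Cybb alone of 12 PU.1 targets was called, at 29.6 ± 5.39 CPM in MSA and 11.4 ± 1.07 CPM in control microglia (SD, n = 3 each). Its log2 difference was 1.34 ± 0.16 (edgeR adjusted p = 0.00265), while Spi1 itself overlapped between these genotypes. Cybb encodes a subunit of the phagocyte oxidase. Of all genes 0.61% were called between these genotypes. In microglia against cortex 11 of the 12 targets were higher, as were 32.1% of all genes.

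Of 25 paralogues of the 9 genes, 16 to 18 were tested per region and 0 were called in the 6 diet comparisons by edgeR or by DESeq2, with 0 to 3 at an unadjusted p under 0.05. In sorted control microglia against cortex 12 of 17 were higher and 2 lower, where 32.1% of all genes were higher and 38.7% lower. Irf9, Irf1 and Irf3, factors of the interferon response, were higher by 3.16 ± 0.21, 3.55 ± 0.23 and 2.45 ± 0.20. Mef2a averaged 751 ± 22.4 CPM in microglia and 156 ± 3.45 CPM in cortex (SD, n = 3 each), a log2 change of 2.40 ± 0.21, where Mef2c had 0.08 ± 0.25.

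Of 20 other macrophage regulators, 0 were called in the 6 diet comparisons by edgeR, with 2 to 7 at an unadjusted p under 0.05, and 0 to 3 by DESeq2. In microglia against cortex 10 of 17 were higher and 3 lower, with Lyl1 at 6.504 ± 0.34 and Fli1 at 5.48 ± 0.38. Of all genes 32.1% were higher and 38.7% lower in that comparison. Of 12 ligands, receptors and mediators upstream of the 9 genes, 2, 2 and 1 were lower on PLX5622 in control cortex, corpus callosum and striatum. The shares of all genes called lower were 0.486, 0.378 and 0.329%. The called genes were Csf1r and Tgfbr1 in cortex and corpus callosum, and Csf1r alone in striatum. Csf1r is counted among the PU.1 targets and the microglia genes as well. Csf1r had no counts in PLX5622 control cortex and 87.5 ± 31.4 CPM on placebo. Tgfbr1, a receptor of TGF-β, averaged 8.31 ± 1.67 CPM on PLX5622 and 45.3 ± 14.5 CPM on placebo in control cortex (SD, n = 3 each), a change of -2.41 ± 0.30.

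Genes with the most like pattern were sought over the 30 bulk libraries among 14827 genes. The measure was the mean absolute difference of log2(CPM + 0.5), each gene centred on its own mean, and the libraries share their diet, region and genotype. For Spi1 the 3 nearest were Cd37 (0.38), Bin2 (0.41) and Fcer1g (0.44), against a mean absolute deviation of Spi1 itself of 1.499. For Irf8 they were Nckap1l (0.35), Pik3cg and P2ry6, for Irf5 Fyb (0.40) and Arhgap30 were among them, and for Runx1 they were Lcp1 (0.39), Tnfaip8l2 and Pros1. Ikzf1 had Il10ra (0.46), Nckap1l and Dapp1, and Irf8 stood at rank 5 in its order. The nearest of the 9 genes to Irf5 was Irf8, at rank 15.

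The other 4 genes were near none of the first 5, and for Cebpa, Sall1 and Sall3 the likeness was weak, since their own mean absolute deviations were only 0.496, 0.468 and 0.407, against 0.786 for Mef2c. Cebpa was nearest to Cbs (0.33), Tbcel and Tmco4, and Sall1 to Epb41l2 (0.32), Cmtm6 and P2rx7. Sall3 had Pou3f3 (0.27), Tcf12 and Gpam, and Mef2c had Sphkap (0.27), Camk2g and Sv2b. The nearest other gene of the 9 stood at rank 1832 for Sall1, 2038 for Cebpa, 4433 for Sall3 and 11381 for Mef2c.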

How the data were processed

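Poly(A) RNA-seq libraries were assigned to groups by the genotype, region and diet in their titles. HOMER, STAR and DESeq2 are named, with the mm10 build, per the submitters' processing notes. No source used here gives versions, filters or the strand setting. One deposited table holds raw read counts of 24940 genes with the coordinates of a RefSeq transcript. Its header gives a total for each library, per the file headers. A second deposited table gives TPM for the same genes and libraries, made by the authors, and was used to compare levels between genes.

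Counts assigned to genes were 59.5 to 84.5% of the header totals, under 70% in 6 libraries. CPM is a count divided by the assigned total, times 1e6. All genes of a region were fitted over its 4 groups with edgeR 4.0.16 in R 4.3.3 (filterByExpr with minimum count 10, TMM, robust quasi-likelihood F test, 2-sided). Benjamini-Hochberg adjusted p under 0.05 over all genes tested was a call, and SE is the log2 change divided by the root of F. Sorted microglia, microglia against cortex, and regions (all 30 bulk libraries) had their own fits. The fits were tested on simulated counts. Within groups the 30 pairs of libraries differed by 4.98 to 142 chi-square per degree of freedom, so no pair was a copy.

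Where a group had no read of a gene, its floor was 3 counts in all. Ratios on 1 to 3 counts carry a 95% exact counting interval. The 95% intervals of log2 changes are normal and hence narrower than the F test implies. As alternatives, each library was left out in turn, the low-count filter was dropped, RLE size factors or DESeq2 1.42.0 were used, and replicate numbers entered as a block. Fits on 2 groups alone or on all 30 bulk libraries were made too, and fits without libraries of low assignment or without the PLX5622 libraries of control striatum. The 9 genes and the 18 lists (179 genes) were chosen with earlier results of these data known. All 9 genes are named, with up to 4 called genes of smallest p per list and comparison and the 3 genes of most like pattern with a mean of at least 1 CPM, except for a gene that is not reported here.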

Additional observations from a re-analysis of the deposited data

Results flagged for a closer look

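Sall3 had opposite signs of change in several pairs of comparisons, with every library of one group on one side. On PLX5622 against placebo its log2 change was -0.23 in control striatum and 0.47 in MSA striatum, and -1.08 in MSA cortex. MSA against control striatum gave 0.40 on PLX5622 and -0.29 on placebo. The difference between genotypes in striatum was tested as an interaction and was 0.69 ± 0.34 (edgeR adjusted p = 0.802). The difference between striatum and cortex in the diet change, over both genotypes, was 1.02 ± 0.33 (edgeR adjusted p = 1). Neither passed over all genes. The groups held 2 or 3 libraries, too few to look for single libraries far from their group.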

How the results depend on the processing

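The sign of a called change was reversed under none of the alternatives run. The 8 calls of microglia against cortex were kept in all 10 alternatives, and Mef2c between striatum and cortex in all 34. The number of the 9 genes called moved as follows. On PLX5622 against placebo in control cortex, 3 by the reported fit, it was 4 by DESeq2, with no filter or with all 30 libraries (Irf5 added each time), 2 without libraries of low assignment, 0 with the 2 groups alone and 1 to 4 with a library left out. In control corpus callosum, with 1, it was 4 by DESeq2, 3 with no filter, 2 with RLE size factors, all 30 libraries or no library of low assignment, 0 with the 2 groups alone, and 0 to 2 with a library left out. In control striatum, with 1, it was 2 by DESeq2, with no filter or without libraries of low assignment, and 0 to 2 with a library left out. In MSA corpus callosum, with 0, it was 2 by DESeq2 and 0 to 1 with a library left out. In MSA striatum, with 0, it was 2 by DESeq2, 1 with no filter or all 30 libraries, and 0 to 1 with a library left out. For MSA against control cortex on PLX5622, with 1, it was 2 by DESeq2, 3 with all 30 libraries and 0 with the 2 groups alone. For the same in corpus callosum, with 0, it was 2 by DESeq2 or all 30 libraries and 1 with no filter or without libraries of low assignment. On placebo in corpus callosum it was 1, Irf5, with the 2 groups alone, and for the interaction in cortex 1 by DESeq2. The cause of these shifts was not tested. In striatum the only library of low assignment was PLX5622 MSA library 2. The fit without low assignment was there the same as that with this library left out, and it left a single library in that group. In corpus callosum the fit without low assignment left a single library in each PLX5622 group.

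With the replicate number as a block the calls were 1 in control cortex, 0 in control corpus callosum, 2 in MSA striatum and 0 for MSA against control cortex on PLX5622. Pairs of libraries of the same number had deviations correlated over 0.1 in 6 of 18 cases in cortex and 1 of 10 in corpus callosum. It was 6 of 10 in striatum and 1 of 3 in microglia. For unlike numbers it was 12 of 36, 5 of 20, 4 of 20 and 0 of 6. The median correlation in striatum was 0.122 for the same number and -0.048 for unlike numbers. In a group of 2 libraries the deviations mirror each other, so correlations repeat between pairs with the sign kept or turned. The pairs counted are thus not independent, and these values do not settle whether striatum libraries are paired. The labels name no pairs, and the reported fits took none. A fit on 2 groups alone could not be made for interactions. At 4.36 to 28.6 M counts per bulk library, a gene at 1 CPM rests on few reads.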
